A study of Mus musculus with 8 samples.

Results

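The transcripts described here are those of 10 genes that control the passage of a cell through the G1 phase: the D-type cyclins Ccnd1, Ccnd2 and Ccnd3, the E-type cyclins Ccne1 and Ccne2, the kinases Cdk4, Cdk6 and Cdk2, and the kinase inhibitors Cdkn2c and Cdkn2d. They were chosen by name, for their place in the G1 machinery, out of the 48795 genes of the count table, and each matched exactly 1 gene identifier. The choice was made with earlier results of these data known. All 10 passed the filter on low counts. The libraries were made from LSK cells, a fraction of mouse bone marrow sorted as lineage-negative and positive for Sca-1 and c-Kit, which contains haematopoietic stem cells and early progenitors. Every mouse was of strain C57BL/6 and had chronic myeloid leukaemia (CML), a disease of the BCR-ABL kinase, induced for 10 weeks. The compared groups were SIRT1 deleted (cre+) mice, called Sirt1-deleted, and control (cre-) mice, with 4 biological replicates each per the labels. The labels used here name neither the promoter of the cre nor the transgene behind the leukaemia, and no healthy mice are in the series as given here.

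D-type cyclins are made in response to growth signals and activate CDK4 and CDK6, and the E-type cyclins then activate CDK2. These kinases phosphorylate the retinoblastoma protein and its relatives, which releases E2F transcription factors and starts the genes of DNA replication. The INK4 proteins, p18 from Cdkn2c and p19 from Cdkn2d, bind CDK4 and CDK6 and keep them from D-type cyclins. In mouse marrow, loss of p18 is known to raise the self-renewal of stem cells, and the D-type cyclins can in part replace each other.

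Gene counts totalled 24648721 to 34280925 per Sirt1-deleted library and 18252562 to 28883834 per control library, and 16154 to 20342 genes per Sirt1-deleted and 15316 to 19917 per control library had at least 1 count. Sirt1-deleted 1 and control 2 had the fewest detected genes. The Sirt1 transcript stood at 7.44 to 17.0 CPM (counts scaled to the size of each library) in Sirt1-deleted and at 8.14 to 17.9 CPM in control libraries, and a count over a whole gene cannot show whether exons are missing. The sort markers were present in every library: Kit was at 108 to 157 CPM in Sirt1-deleted and 32.4 to 44.0 CPM in control libraries, and Ly6a, the gene of Sca-1, at 119 to 224 CPM in Sirt1-deleted and 232 to 780.2 CPM in control libraries. Kit was called higher with all 8 libraries (edgeR adjusted p = 0.0145), but its adjusted p was 0.0614 to 0.0989 without any of Sirt1-deleted 2, 3 and 4 or controls 1, 2 and 3. Summed markers listed for stem cells (12 genes) were at 586 to 882 CPM in Sirt1-deleted and 279.5 to 339 CPM in control libraries, which do not overlap. These sums were mostly Cd34, at a mean of 471 CPM in Sirt1-deleted and 262 CPM in control libraries, so they mainly follow that gene. Of the 11 tested genes of this list, 9 had estimates above 0 and 2 below, and none was called. In 7 of them the Sirt1-deleted libraries lay above all controls, against 6.64% of all genes. Summed markers of granulocyte-monocyte progenitors (9 genes) were at 7997 to 14361 CPM in Sirt1-deleted and 12501 to 25524 CPM in control libraries. Those of neutrophils (9 genes) were at 1216 to 2785 CPM in Sirt1-deleted and 2087 to 5439.6 CPM in control libraries. The sums of both lists overlapped, but most of their genes had lower estimates in Sirt1-deleted libraries. Of the granulocyte-monocyte progenitor markers, all 9 were below 0 (median log2 fold change -1.16) and 8 had an unadjusted p under 0.05. Among these, Ms4a3 was called lower (edgeR adjusted p = 0.0298). Of the neutrophil markers, 8 of 9 were below 0 (median -1.12), 5 had an unadjusted p under 0.05, and none was called. Mast cell and basophil markers (7 genes) summed to 326 to 1222 CPM in Sirt1-deleted and 1157 to 6369.6 CPM in control libraries, with control 1 far above the rest. All 7 of these genes had estimates below 0 (median log2 fold change -1.80), 5 had an unadjusted p under 0.05, against 8.60% of all genes downwards, and none was called. T and NK cell markers (9 genes) summed to 547 to 649 CPM in Sirt1-deleted and 767 to 895 CPM in control libraries, of which Nkg7 averaged 439 CPM in Sirt1-deleted and 557 CPM in control libraries, while the other 8 genes each averaged 2.42 to 73.1 CPM in Sirt1-deleted and 4.92 to 92.9 CPM in control libraries. Summed endothelial markers (5 genes) were at 93.8 to 119.8 CPM in Sirt1-deleted and 49.1 to 84.6 CPM in control libraries, and were mostly Pecam1, at a mean of 98.3 CPM in Sirt1-deleted and 57.0 CPM in control libraries. The sums of the other 4 marker lists overlapped between the groups. Among them, B and plasma cell markers (9 genes) were uneven, at 475 to 4713 CPM in Sirt1-deleted and 536 to 1937 CPM in control libraries. They were mostly Jchain, at a mean of 2398 CPM in Sirt1-deleted and 938 CPM in control libraries. The part of these markers in the results below was not tested, and in bulk RNA fewer cells of a type and less RNA per cell cannot be told apart.

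None of the 10 genes was called between Sirt1-deleted and control libraries, in either direction. Over all 14178 genes tested, 12 (0.0846%) were called at an adjusted p under 0.05, 0.0494% of the genes as higher and 0.0353% as lower. With so few calls, the absence of a call among 10 genes does not set them apart from other genes. The gene nearest to a call was Cdkn2d, at 0.530 times the control level, followed by Ccnd3 at 0.806 times and Cdk2 at 1.34 times. Estimates were below 0 for 9 of the 10 genes (7 to 9 over the alternatives), Cdk2 being the exception, with a median log2 fold change of -0.26, where 46.1% of all tested genes were below 0 and their median was 0.06. An unadjusted p under 0.05 was reached by 3 of 10 genes, Cdkn2d, Ccnd3 and Cdk2, against 16.2% of all genes. The groups did not overlap for 3 of the 10, Cdkn2d, Ccnd3 and Ccne2, all lower in Sirt1-deleted libraries, where 6.44% of all genes had this pattern downwards. The same 3 were non-overlapping with RLE size factors, with upper quartile scaling and with library totals alone, the last chosen after seeing the data.

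**Figure D1:**
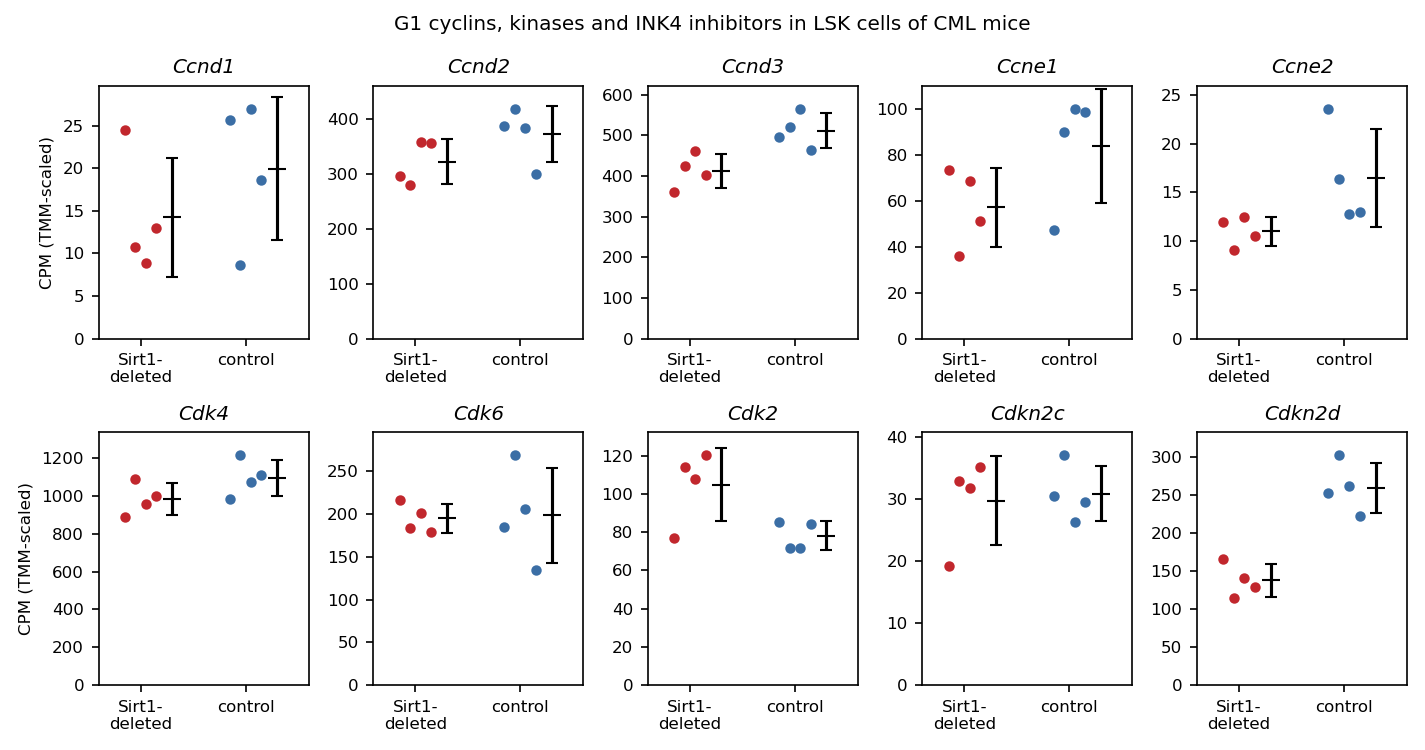
CPM of each G1 gene (y axis, from 0, scaled by TMM library sizes) in the 4 Sirt1-deleted and the 4 control libraries. Points are libraries 1 to 4 from left to right, and the black bar is the mean with its SD. The groups are apart for Cdkn2d, and by narrow gaps for Ccnd3 and Ccne2.

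Among the inhibitors, Cdkn2d was the gene that stood furthest apart. Cdkn2d (ENSMUSG00000096472.1, chromosome 9, 21288410 to 21291407, minus strand, GRCm38) encodes p19, an INK4 protein found in many tissues. It was at 165, 115, 141 and 129 CPM in Sirt1-deleted 1 to 4 and at 252, 301, 262 and 222 CPM in controls 1 to 4. The highest Sirt1-deleted library, number 1, lay well under the lowest control, number 4. Means were 137 ± 21.3 CPM in Sirt1-deleted and 259 ± 32.8 CPM in control libraries (SD, n = 4 each). The log2 fold change was -0.92 ± 0.14 (SE, 95% interval -1.24 to -0.59, edgeR adjusted p = 0.0672). It ranked number 32 by p among all tested genes. The call depends on the tool and the libraries: the adjusted p was 7.26e-06 with DESeq2, 0.0134 with limma-voom, 0.0331 without Sirt1-deleted 1 and 0.0439 without the pair of libraries with the fewest detected genes. With DESeq2, 7.66% of all genes were called, with limma-voom 8.03%, without Sirt1-deleted 1 3.05% and without that pair 2.13%. When any other single library was left out, the edgeR adjusted p of Cdkn2d was 0.0936 to 0.277, not a call. In those fits 0 to 4 genes were called over all. With detected genes as a covariate the edgeR adjusted p was 0.0899. With the trend over transcript length and GC content removed from each library, the log2 fold change was -0.64 (adjusted p = 0.0816).

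Cdkn2c (ENSMUSG00000028551.14, chromosome 4, 109660876 to 109667189, minus strand), the gene of p18, had 19.2, 32.9, 31.7 and 35.1 CPM in Sirt1-deleted and 30.5, 37.0, 26.3 and 29.6 CPM in control libraries. The groups overlapped, and Sirt1-deleted 1 was the lowest of the 8. This gave a log2 fold change of -0.05 ± 0.23 (95% interval -0.57 to 0.46, edgeR adjusted p = 0.934), and its sign turned in 4 of 18 alternatives. The interval still allows a change to either side, so the data do not show that Cdkn2c stayed at the same level. Within a library the count of Cdkn2d was 8.61, 3.49, 4.44 and 3.67 times that of Cdkn2c in Sirt1-deleted 1 to 4, and 8.24, 8.14, 9.94 and 7.51 times in controls 1 to 4. Sirt1-deleted 1 lay among the controls and the other three lay below them. The log2 ratio averaged 2.23 ± 0.60 in Sirt1-deleted and 3.07 ± 0.17 in control libraries (SD, n = 4 each), a difference of -0.84 (exact two-sided permutation p = 0.114, adjusted p = 0.686 over 6 ratios, direction seen in 3 of 4 Sirt1-deleted libraries).

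Sequence from the RefSeq promoter table (GRCm38.p6) is shown for the inhibitor that stood furthest apart, the kinase that ran the other way and the kinase with the highest level. Of the 10 genes, 7 were in this table, without Ccnd1, Ccnd2 and Ccne2. The 250 bases before the transcription start used in that table are given 5′ to 3′ on the strand of the gene. Capitals mark the GC box GGGCGG in Cdkn2d, the GC box, the CCAAT box and an E2F-type match to TTTCCCGC in Cdk2, and the E-box CACGTG in Cdk4, each sought on both strands.
Cdkn2d promoter, chr9:21291210-21291459, minus strand: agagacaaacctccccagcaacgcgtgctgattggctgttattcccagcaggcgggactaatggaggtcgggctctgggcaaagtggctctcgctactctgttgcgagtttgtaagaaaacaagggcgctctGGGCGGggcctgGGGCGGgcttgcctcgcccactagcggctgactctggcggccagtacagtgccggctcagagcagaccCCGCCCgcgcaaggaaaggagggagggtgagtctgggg
Cdk2 promoter, chr10:128705052-128705301, minus strand: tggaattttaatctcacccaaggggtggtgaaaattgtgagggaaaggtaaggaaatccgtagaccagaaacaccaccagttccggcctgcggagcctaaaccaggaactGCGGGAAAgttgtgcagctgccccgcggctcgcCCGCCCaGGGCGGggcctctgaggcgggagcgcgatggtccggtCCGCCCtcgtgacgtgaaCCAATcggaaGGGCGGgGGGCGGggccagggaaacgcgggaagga
Cdk4 promoter, chr10:127063285-127063534, plus strand: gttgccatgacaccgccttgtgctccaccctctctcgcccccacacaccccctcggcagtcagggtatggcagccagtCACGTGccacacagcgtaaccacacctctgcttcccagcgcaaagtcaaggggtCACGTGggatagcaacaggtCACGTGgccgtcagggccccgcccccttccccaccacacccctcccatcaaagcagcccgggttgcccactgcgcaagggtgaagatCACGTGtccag
The Cdkn2d stretch held 3 GC boxes, at 118, 106 and 38 bases before the start used in the table, and the Cdk2 stretch held 5. The start of Cdkn2d differs between annotations: GENCODE places the end of this minus-strand gene at 21291407, so 198 of the 250 bases and all 3 GC boxes lie inside the gene as GENCODE gives it. The Cdk2 stretch lies outside its GENCODE gene, and that of Cdk4 reaches 1 base into it. Left unmarked above were a CCAAT box in the Cdkn2d stretch, at 220 bases before the start, and a GC box in that of Cdk4, at 80 bases. A GC box was present in 32.7% of 32851 such stretches over all genes and a CCAAT box in 33.8%. The Cdk4 stretch held 4 E-boxes, at 172, 118, 98 and 11 bases before the start, a motif present in 6.02% of all stretches and known as a binding sequence of MYC. Of the 4 E2F-type forms sought (TTTGGCGC, TTTCGCGC, TTTGCCGC and TTTCCCGC, in 1.86% of stretches), the last was found in Cdk2, at 140 bases before the start, and none was found in the stretches of the other 6 genes. The GC boxes of Cdk2 do not overlap its other marked motifs. These matches are descriptions of letters and do not show that a factor is bound.

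Of the D-type cyclins, Ccnd3 and Ccnd2 carried nearly all of the transcript, and Ccnd1 was rare. Ccnd3 (ENSMUSG00000034165.16, chromosome 17, 47505051 to 47599691, plus strand) was at 361, 425, 461 and 403 CPM in Sirt1-deleted and at 497, 522, 565 and 464 CPM in control libraries. Sirt1-deleted 3 and control 4 were separated by a narrow gap, 460.9 against 463.5 CPM. Means were 412 ± 41.6 CPM in Sirt1-deleted and 512 ± 42.7 CPM in control libraries, a log2 fold change of -0.31 ± 0.11 (95% interval -0.56 to -0.06, edgeR adjusted p = 0.210). The estimate was negative in all 18 alternatives, from -0.44 to -0.23, and was not called in any of them.

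Ccnd2 (ENSMUSG00000000184.12, chromosome 6, 127125162 to 127152193, minus strand), the D-type cyclin known for its induction by cytokines through STAT5, was at 296, 279.5, 357 and 356 CPM in Sirt1-deleted and 387, 418, 384 and 299 CPM in control libraries. Control 4 lay among the Sirt1-deleted libraries and the other controls above them. Between groups the log2 fold change was -0.21 ± 0.14 (95% interval -0.52 to 0.10, edgeR adjusted p = 0.512).

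Ccnd1 (ENSMUSG00000070348.5, chromosome 7, 144929931 to 144939925, minus strand) was at 24.5, 10.7, 8.84 and 12.9 CPM in Sirt1-deleted and 25.7, 8.61, 27.0 and 18.6 CPM in control libraries. Sirt1-deleted 1 lay between the higher and the lower controls and control 2 was the lowest of all, the same libraries that had the fewest detected genes. The log2 fold change was -0.49 ± 0.44 (95% interval -1.49 to 0.52, edgeR adjusted p = 0.644) with all libraries and -1.17 without that pair (adjusted p = 0.0612). Of the exon bases of Ccnd1, 23.4% overlap LTO1 on the other strand (0 to 667 counts), and the kit does not mark strand.

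Per kilobase of exon, Ccnd3 made up 52.9 to 60.2% of the D-type cyclin transcript in Sirt1-deleted and 54.8 to 59.6% in control libraries. Ccnd2 made up 37.0 to 43.7% in Sirt1-deleted and 35.9 to 42.0% in control libraries, and Ccnd1 2.03 to 6.67% in Sirt1-deleted and 1.73 to 5.29% in control libraries. The shares rest on all annotated exons of a gene together (Ccnd3 8775, Ccnd2 9409 and Ccnd1 4709 bases). A gene with long exons that these cells seldom use thus gets too small a share. The 3 ratios between D-type cyclins overlapped between the groups, with differences in log2 ratio of -0.27 for Ccnd1 over Ccnd2, -0.11 for Ccnd3 over Ccnd2 and -0.16 for Ccnd1 over Ccnd3 (exact permutation p = 0.629, 0.400 and 0.800, adjusted p = 0.943, 0.943 and 0.960 over 6 ratios). The difference in Ccnd1 over Ccnd2 rests on single libraries: it was -0.69 without control 2, -0.60 without Sirt1-deleted 1 and -1.02 without both (adjusted p = 0.200). Without both, the exact test cannot go below 0.1, so no ratio could pass it. When 1 of the other libraries was left out, the difference lay between -0.23 and -0.022.

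The partner kinases of the D-type cyclins differed little in mean between the groups. Cdk4 (ENSMUSG00000006728.12, chromosome 10, 127063534 to 127067920, plus strand) was at 891, 1089.7, 956 and 997 CPM in Sirt1-deleted and 982, 1214, 1074 and 1111 CPM in control libraries. The ranges overlapped, with Sirt1-deleted 2 above controls 1 and 3. The log2 fold change was -0.16 ± 0.10 (95% interval -0.39 to 0.08, edgeR adjusted p = 0.520). Tspan31 on the other strand covers 19.7% of the exon bases of Cdk4 and had 1668 to 4128 counts of its own, so reads from the shared stretch may be missing from both.

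Cdk6 (ENSMUSG00000040274.11, chromosome 5, 3341485 to 3531008, plus strand), known in blood cells for a role in leaving quiescence, was at 216, 184, 201 and 179 CPM in Sirt1-deleted and 185, 268, 206 and 134 CPM in control libraries. The Sirt1-deleted libraries lay inside the range of the controls. Its log2 fold change was -0.03 ± 0.20 (95% interval -0.47 to 0.42, edgeR adjusted p = 0.963), with a sign that turned in 4 of 18 alternatives. Within a library, the count of Cdk6 was 0.169 to 0.243 times that of Cdk4 in Sirt1-deleted and 0.121 to 0.221 times in control libraries (log2 difference 0.17, exact permutation p = 0.571, adjusted p = 0.943 over 6 ratios).

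The E-type cyclins had estimates of like size, and neither was called. Ccne1 (ENSMUSG00000002068.16, chromosome 7, 38097984 to 38107534, minus strand) was at 73.3, 35.8, 68.7 and 51.2 CPM in Sirt1-deleted and 47.3, 89.8, 100.1 and 98.9 CPM in control libraries. Controls 2 to 4 were above every Sirt1-deleted library, and control 1 lay among them. Means were 57.3 ± 17.2 CPM in Sirt1-deleted and 84.0 ± 24.9 CPM in control libraries, a log2 fold change of -0.55 ± 0.30 (95% interval -1.23 to 0.13, edgeR adjusted p = 0.410).

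Ccne2 (ENSMUSG00000028212.16, chromosome 4, 11191351 to 11204779, plus strand) was at 12.0, 9.11, 12.4 and 10.5 CPM in Sirt1-deleted and 23.6, 16.4, 12.8 and 13.0 CPM in control libraries. The groups did not overlap, but controls 3 and 4 were close to Sirt1-deleted 3, and control 1 was the highest. The log2 fold change was -0.58 ± 0.28 (95% interval -1.22 to 0.06, edgeR adjusted p = 0.357), and was -0.39 without control 1. Ints8 on the other strand (98 to 674 counts) covers 17.4% of the exon bases of Ccne2. Control 1 was thus low in Ccne1 and high in Ccne2, at 0.498 counts of Ccne2 per count of Ccne1, where the other 3 controls had 0.128 to 0.183 and the Sirt1-deleted libraries 0.164 to 0.255. The mean log2 ratio was -2.33 ± 0.28 in Sirt1-deleted and -2.34 ± 0.92 in control libraries (SD, n = 4 each, exact permutation p = 1.00, adjusted p = 1.00 over 6 ratios), and the difference was 0.45 without control 1.

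Cdk2, the partner of the E-type cyclins, was the 1 gene of the 10 with a higher estimate in Sirt1-deleted libraries. Cdk2 (ENSMUSG00000025358.15, chromosome 10, 128697939 to 128705031, minus strand) was at 77.2, 114, 108 and 120.2 CPM in Sirt1-deleted and 85.3, 71.6, 71.7 and 84.5 CPM in control libraries. Sirt1-deleted 2, 3 and 4 lay above all controls and Sirt1-deleted 1 lay among them. Means were 105 ± 19.1 CPM in Sirt1-deleted and 78.3 ± 7.65 CPM in control libraries, a log2 fold change of 0.42 ± 0.16 (95% interval 0.05 to 0.79, edgeR adjusted p = 0.255). It was positive in all 18 alternatives, from 0.23 to 0.50, and past the threshold in 1 of them, limma-voom with quality weights (adjusted p = 0.0490).

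**Figure D2:**
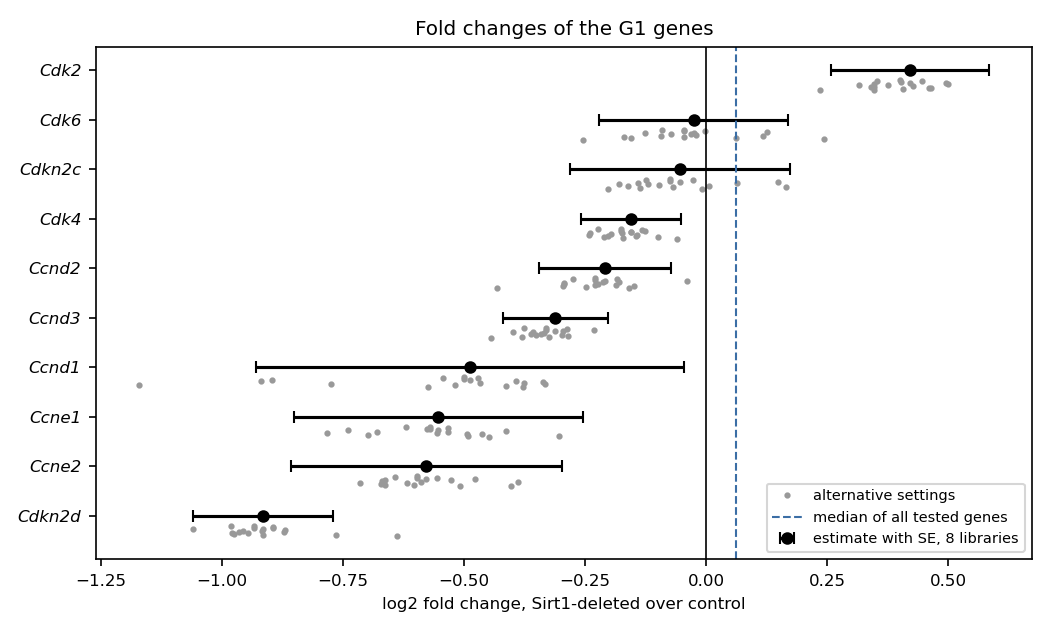
Log2 fold change of each G1 gene, Sirt1-deleted over control (x axis). Black points are edgeR estimates over 8 libraries with their SE, grey points are the 18 alternative settings, and the dashed line is the median of all tested genes (0.06). Cdk2 lies right of 0 and Cdkn2d left of it under every setting, and Cdk6 and Cdkn2c lie on both sides.

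Levels per kilobase of exon ordered the genes over a wide range. Cdk4 was the highest, at 303 ± 25.6 CPM per kilobase in Sirt1-deleted and 337 ± 29.5 CPM per kilobase in control libraries (SD, n = 4 each), and stood above Cdkn2d in all 8 libraries with no overlap. Cdkn2d followed at 87.3 ± 13.5 CPM per kilobase in Sirt1-deleted and 165 ± 20.8 in control libraries, also clear of the next gene. Ccnd3 (47.0 in Sirt1-deleted and 58.3 CPM per kilobase in control libraries) was above Ccnd2 (34.2 in Sirt1-deleted, 39.6 in control) in each of the 8 libraries. Ccnd2 was above Ccne1 (21.5 in Sirt1-deleted, 31.6 in control) in 7 of 8, and Ccne1 above Cdk2 (16.9 in Sirt1-deleted, 12.6 in control) in 6 of 8. Cdk2 and Cdk6 (13.9 in Sirt1-deleted, 14.2 in control) were not ordered, with Cdk2 the higher in 5 libraries. Cdkn2c (11.1 in Sirt1-deleted, 11.5 in control) was above Ccne2 in all 8 libraries. The lowest genes, Ccne2 (3.15 in Sirt1-deleted, 4.71 in control) and Ccnd1 (3.02 in Sirt1-deleted, 4.24 in control), had overlapping ranges. The lengths are those of all annotated exons of a gene together, so a gene with long exons that these cells seldom use is placed too low.

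**Figure D3:**
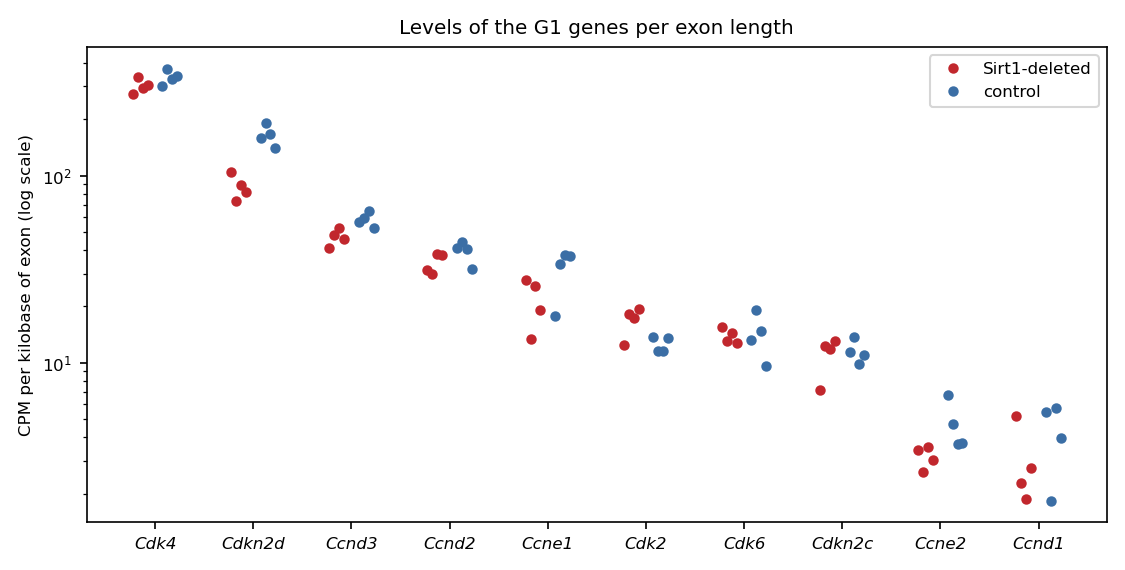
Level per kilobase of annotated exon (y axis, log scale) of the 10 G1 genes in each library, Sirt1-deleted on the left and control on the right of each gene. Cdk4 lies above all others, and the groups are apart for Cdkn2d.

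The ratios between related genes do not depend on how libraries are scaled, and none of the 6 passed the test. The smallest p that 70 assignments allow is 0.0286, and adjusted over 6 ratios a value under 0.05 would need more than 3 of them to reach it.

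**Figure D4:**
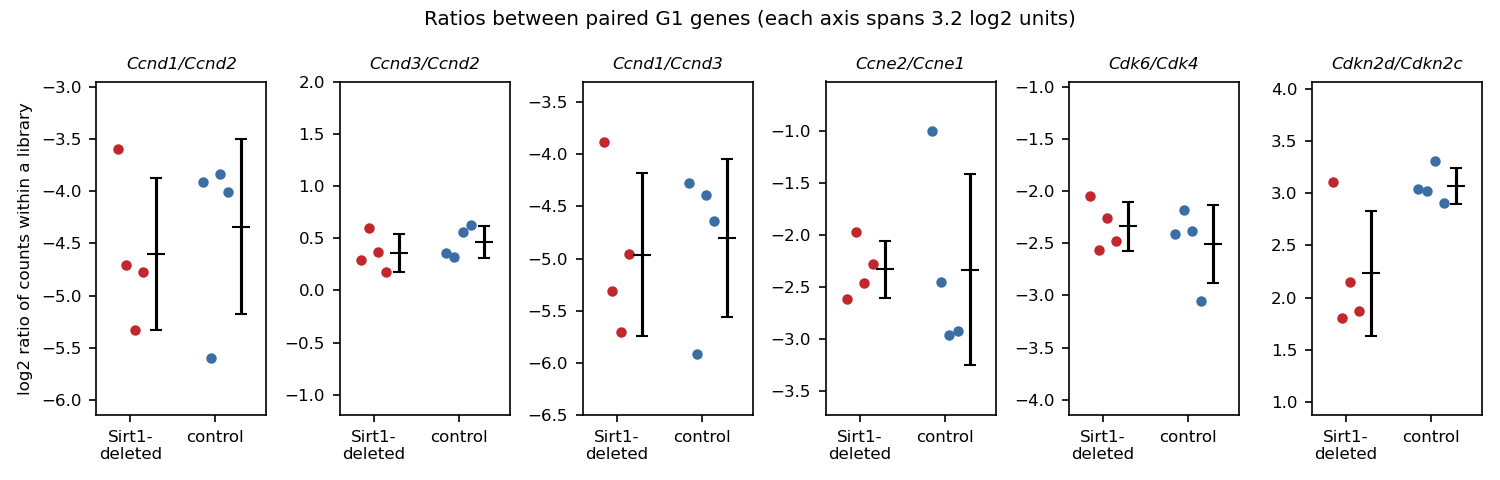
Log2 ratio of counts between paired G1 genes within each library (y axis; all panels span the same distance) in Sirt1-deleted and control libraries, with mean and SD. Ranges overlap in all 6 panels, and Sirt1-deleted 1 sits apart from Sirt1-deleted 2 to 4 for Cdkn2d over Cdkn2c.

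The genes with the most similar profile over the 8 libraries were sought among 9405 protein-coding genes that averaged 5 CPM or more. For Cdkn2d they were Gsr, the glutathione reductase gene (Pearson r = 0.989 on log2 CPM), Alas1, the first enzyme of haem synthesis (0.987), and Psmb5, a proteasome subunit (0.985). Gsr averaged 199.8 CPM in Sirt1-deleted and 408 CPM in control libraries, and Alas1 184 CPM in Sirt1-deleted and 402 CPM in control libraries. For Ccnd3 they were Miip (0.959), Gatc (0.958) and Igsf6 (0.952). The 8 points share the difference between the groups, so a high value is a description of the profiles only.

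In the rest of the RB-E2F pathway, 40 further genes were listed, of which 39 were tested and none was called in either direction. Their median log2 fold change was 0.03, with 21 positive and 18 negative. An unadjusted p under 0.05 was reached upwards by 2 and downwards by 2 of the 39, against 7.55% and 8.60% of all genes. Of the CIP/KIP inhibitors, which act on CDK2, Cdkn1a was at 192, 183, 127 and 105 CPM in Sirt1-deleted and 304, 132, 189 and 178 CPM in control libraries (edgeR adjusted p = 0.547). Cdkn1b was at 3.21 to 12.8 CPM in Sirt1-deleted and 4.43 to 12.5 CPM in control libraries, and Cdkn1c at 2.06 to 3.21 CPM in Sirt1-deleted and 1.27 to 4.60 CPM in control libraries, with overlap in both. The remaining INK4 genes were scarce. Cdkn2a, whose count adds up the p16 and ARF transcripts, was at 0.277 to 1.35 CPM in Sirt1-deleted and at 7.40, 5.19, 1.05 and 0.521 CPM in controls 1 to 4 (log2 fold change -2.28 ± 1.00, edgeR adjusted p = 0.306). Cdkn2b was at 0.424 to 3.79 CPM in Sirt1-deleted and 0 to 9.47 CPM in control libraries (-1.77 ± 1.34 on the log2 scale, adjusted p = 0.578 by edgeR).

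The pocket proteins, which the G1 kinases phosphorylate, had estimates on both sides of 0. Rb1 was at 4.03 to 13.1 CPM in Sirt1-deleted and 5.76 to 11.8 CPM in control libraries (edgeR adjusted p = 0.917). Rbl1, the gene of p107, was at 38.6, 26.4, 37.3 and 31.3 CPM in Sirt1-deleted and 24.5, 19.5, 26.4 and 24.5 CPM in control libraries (log2 fold change 0.49 ± 0.19, edgeR adjusted p = 0.256). Rbl2, the gene of p130, the pocket protein that predominates in quiescent cells, was at 34.5, 31.4, 31.4 and 42.0 CPM in Sirt1-deleted and 30.2, 6.30, 8.42 and 22.0 CPM in control libraries. The groups did not overlap, but control 1 was close to the Sirt1-deleted libraries and control 2 was far below (log2 fold change 1.06 ± 0.47, edgeR adjusted p = 0.318). E2f1, an activating E2F, was at 127 to 145 CPM in Sirt1-deleted and 96.8 to 161 CPM in control libraries (edgeR adjusted p = 0.648).

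No gene of the lists acting after G1 was called by edgeR with all libraries, but the calls depend on the tool. DESeq2 called Rrm2, Gins2, Gins1, Birc5, Kif20a and Top2a (adjusted p from 0.00021 to 0.0491). With limma-voom, Rrm2, Gins2, Birc5 and Kif20a were called (adjusted p from 0.0134 to 0.0446), and Gins1 and Top2a were not. These tools called 7.66% and 8.03% of all genes. Of 32 E2F target genes of DNA replication, 5 had an unadjusted p under 0.05 upwards and 6 downwards, against 7.55% and 8.60% of all genes (median log2 fold change 0.09, 19 positive and 13 negative). Those of smallest p were Rrm2, a subunit of ribonucleotide reductase, with a log2 fold change of -0.63 ± 0.14 (edgeR adjusted p = 0.101), and the replication helicase subunits Gins2 (-0.47) and Gins1 (-0.82). Of 20 genes of G2 and mitosis, 4 had an unadjusted p under 0.05 upwards and 1 downwards, with a median log2 fold change of 0.13, 15 positive and 5 negative. The survivin gene Birc5 was at 203 ± 20.6 CPM in Sirt1-deleted and 301 ± 19.8 CPM in control libraries (edgeR adjusted p = 0.0892), the kinesin gene Kif20a at 83.0 ± 8.11 CPM in Sirt1-deleted and 53.6 ± 10.5 CPM in control libraries, and the topoisomerase gene Top2a at 191 ± 15.6 CPM in Sirt1-deleted and 143 ± 18.8 CPM in control libraries (SD, n = 4 each).

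Most genes listed as regulators upstream of the D-type cyclins, mainly receptors and transcription factors, had higher estimates in Sirt1-deleted libraries. The 3 below 0 were Gata2 (-0.38), Foxo1 (-0.25) and Junb (-0.06). Whether the listed genes acted on the D-type cyclins in these cells was not tested. Of 20 listed genes 19 were tested, with a median log2 fold change of 0.58 and 16 positive. Only 1, Kit, was called by edgeR with all libraries. Flt3 and Meis1 were also called with DESeq2 (adjusted p = 0.00011 and 0.00049) and with limma-voom (adjusted p = 0.0136 and 0.0156). In 8 of the 19 the Sirt1-deleted libraries lay above all controls, against 6.64% of all genes. Flt3, a cytokine receptor of early progenitors, was at 345 ± 35.9 CPM in Sirt1-deleted and 193 ± 36.2 CPM in control libraries (a difference of 0.84 ± 0.15 on the log2 scale, edgeR adjusted p = 0.0892). Meis1, a partner of HOX factors in stem cells, was at 68.7 ± 14.3 CPM in Sirt1-deleted and 24.4 ± 10.3 CPM in control libraries (1.50 ± 0.32, adjusted p = 0.101 by edgeR). The summed stem cell markers, mostly Cd34, were also higher in every Sirt1-deleted library, and they share 1 gene with this list.

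**Figure D5:**
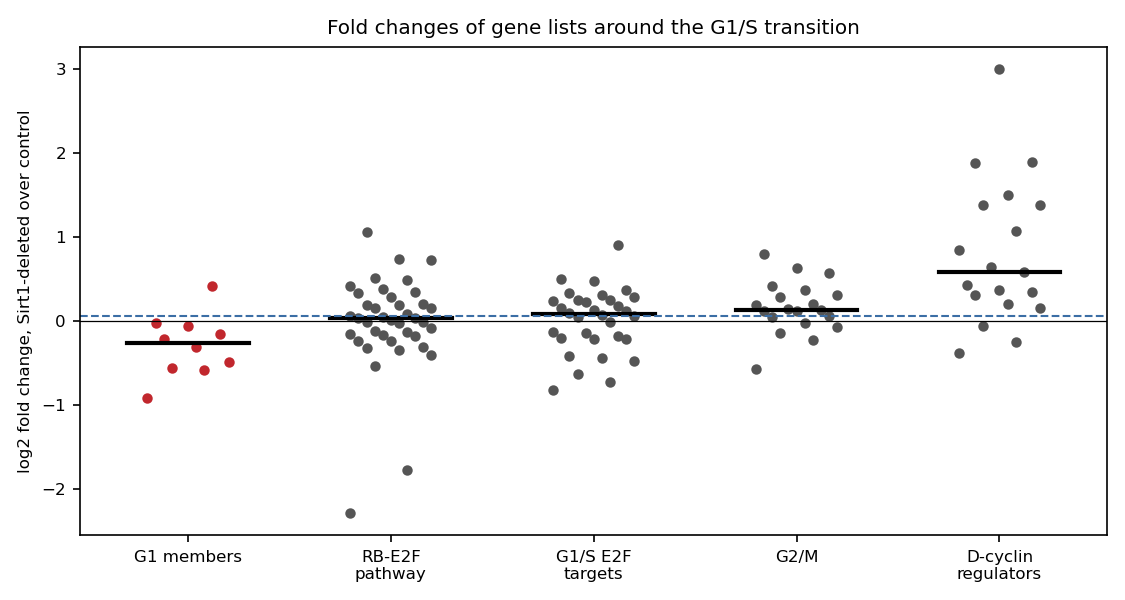
Log2 fold change, Sirt1-deleted over control (y axis), of each tested gene of 5 lists. Points are genes, black bars the median of a list, and the dashed line the median of all tested genes (0.06). The 10 G1 genes have a median of -0.26, and the list upstream of the D-type cyclins one of 0.58.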

How the data were processed

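Whole-number read counts per gene, not normalised, were deposited for 8 libraries. Per the labels' protocols, libraries were made with SMARTer Ultra Low Input v4 and Nextera XT, which do not mark strand and carry no molecular identifiers. Named in the submitters' processing notes are DESeq2 1.20.0, HTSeq 0.9.1, STAR 2.5.3, Trim Galore 0.5.0, bcl2fastq 2.18.0.12 and GRCm38, while the annotation release and the settings of the counting were not given in the sources used. The 5 summary rows that name no gene held 33.2 to 40.6% of the records and were left out. Columns were matched to samples by title. The column of control 4 differs from its title in the last letter. Replicates were numbered by order of deposit, so a number links no libraries across groups.

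Symbols came from the reference name table (99.1% of identifiers), lengths and coordinates from GENCODE M21. Counts were fitted with the edgeR 4.0.16 quasi-likelihood test (limma 3.58.1, R 4.3.3), with TMM scaling, filterByExpr, robust estimation and Benjamini-Hochberg adjustment over 14178 genes. SE is the size of a log2 fold change divided by the root of its F. CPM use TMM library sizes. Ratios use counts plus 0.5 and an exact two-sided permutation test. The fit was tested on simulated data. Alternatives were other scalings and filters, DESeq2 1.42.0, limma-voom, left-out libraries, a covariate and a length and GC correction.

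The 10 genes and all lists were chosen with earlier results of these data known. Named beside them were Sirt1, the sort markers, further inhibitors, pocket proteins, E2f1, and up to 3 genes of smallest p per list.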

Additional observations from a re-analysis of the deposited data

Results flagged for a closer look

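For the log2 ratio of Ccnd1 to Ccnd2, control 2 was at -5.60, where the other 3 controls lay between -4.01 and -3.83, a gap that is 0.899 of the range of the group. In all, 72 groups of 4 values were examined with Dixon's 95% criterion and this was the 1 that passed it, where chance flags about 1 in 20 groups. Without control 2 the difference in this log2 ratio, Sirt1-deleted minus control, was -0.69, against -0.27 with all libraries. Control 2 also had the fewest detected genes of all libraries.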

How the results depend on the processing

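No paired analysis was possible because the labels number no replicates and tie no control mouse to a Sirt1-deleted one. Titles of the 2 groups start with different digits, which cannot be told apart from genotype.

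The count of calls depended on the tool and the libraries far more than the estimates of the 10 genes did. Against 12 genes called over all and 0 of the 10, DESeq2 called 1086 and 1 (Cdkn2d), limma-voom with quality weights 1138 and 2 (Cdkn2d and Cdk2), and the fit without Sirt1-deleted 1 and control 2, which had the fewest genes detected, 311 and 1 (Cdkn2d). Without robust estimation 7 genes were called over all, with the length and GC trend removed (chosen after seeing the data) also 7, in the titles starting with 2 and 4 there was 1, and with detected genes as a covariate 0, each with 0 of the 10. Leaving out each library in turn gave 0 to 451 calls over all, the highest without Sirt1-deleted 1, and 0 to 1 of the 10. In the fit of all libraries, 2290 genes and 3 of the 10 had an unadjusted p under 0.05. The cause of these shifts was not tested.

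Of the 10 genes, 8 kept their sign in all 18 alternatives, Cdkn2d ranging from -1.06 to -0.64. Cdk6 turned to 0.13 with limma-voom, 0.062 without that pair of libraries and 0.24 with the covariate, and ranged from -0.17 to 0.12 over left-out libraries. Cdkn2c turned to 0.15 with limma-voom and 0.17 without that pair, and ranged from -0.18 to 0.063. Beside them, with the covariate Sirt1 turned to 0.046 and Cdkn1b to -0.28, and in the titles starting with 2 and 4 Cdkn1c turned to -0.17 and Rb1 to 0.27. Over left-out libraries Cdkn1c ranged from -0.20 to 0.43 and Rb1 from -0.52 to 0.067. The cause was not tested.

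Among the log2 ratios, over left-out libraries Ccnd1 over Ccnd2 ranged from -0.69 to -0.022, Ccnd3 over Ccnd2 from -0.19 to -0.047, Cdkn2d over Cdkn2c from -1.13 to -0.70, Ccnd1 over Ccnd3 ranged from -0.53 to 0.087, Ccne2 over Ccne1 from -0.21 to 0.45 and Cdk6 over Cdk4 from -0.012 to 0.28. The Cdk6 over Cdk4 ratio was -0.15 with the length and GC trend removed. With 1 library left out an exact test of 35 assignments cannot go below 0.0286. No ratio passed under any alternative. With 1 library left out, several ratios at once would have had to reach 0.0286 for any to pass. Without Sirt1-deleted 1 and control 2 the exact test cannot go below 0.1, so no ratio could pass there and that test decides nothing.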
